A study of Mus musculus with 9 samples.

Results

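The BCL-2 family genes described here are 10 genes that set the threshold for mitochondrial cell death, chosen by symbol: Bcl2, Bcl2l1, Mcl1, Bcl2l11, Bid, Bad, Bbc3, Pmaip1, Bax and Bak1. All 10 were found among the 22017 gene symbols of the table, and all 10 passed a filter of at least 1 FPKM in at least 3 libraries, as did 10538 genes in all. FPKM is the number of sequenced fragments scaled by transcript length and by library size. Messenger RNA was measured in 9 libraries, 3 in each of 3 groups, from naive T cells of wild-type C57BL/6 mouse spleens activated through CD3 and CD28 over 3 days. The Th17-1 group, called Th17-derived Th1 here, was grown in the Th17 condition and passed to the Th1 condition when the cells were stimulated again on day 7. The Th1-1 group was in the Th1 condition both times, with IL-12 at 10 ng/mL and an antibody against IL-4. The Th17-17 group was in the Th17 condition both times, with TGF-beta at 1 ng/mL, IL-6 at 20 ng/mL, IL-1beta at 10 ng/mL and with interferon-gamma, IL-12 and IL-4 blocked by antibodies. All 3 groups received IL-2 at 100 U/mL from day 5, weak CD3 and CD28 stimulation (0.05 ug/mL of each antibody) on day 7, and gave RNA on day 10. The cultures model the change of one helper fate into another, RNA came from the cells present on day 10, and the labels give no count of living cells.

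Proteins of the BCL-2 family act on the outer mitochondrial membrane. Survival members (BCL-2, BCL-XL and MCL-1) bind and restrain the pore-forming effectors BAX and BAK and the BH3-only proteins, which carry stress and deprivation signals. When BH3-only proteins exceed that restraint, the effectors open the membrane, cytochrome c leaves, and caspases are activated. In T cells, cytokines such as IL-2 and IL-7 sustain survival members, and BIM, the product of Bcl2l11, is known for its part in the death of activated T cells once antigen and cytokine wane.

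Within a group, the correlation of log2(FPKM + 1) over genes, which are not independent replicates, was 0.964 to 0.993. In each group 1 library stood apart from the other 2: Th17-1 replicate 3, Th1-1 replicate 2 and Th17-17 replicate 3. The 6 T cell markers were detected in every library and summed to 865.5 to 1083 FPKM. Single markers differed in both directions. In Th17-1 against Th17-17, Cd28 was higher (1.22, limma adjusted p = 0.00457), while Cd3e (-0.52, 0.00501) and Cd3g (-0.48, 0.0444) were lower. In Th1-1 against Th17-17, 1 was higher and 1 lower, and in Th17-1 against Th1-1 0 were called. Summed Cd8a and Cd8b1, which mark CD8 T cells, reached 152.2 FPKM in Th17-1 replicate 3, 170.5 in Th1-1 replicate 3 and 203.4 in Th17-17 replicate 3, against 19.8 to 79.0 in the other 6 libraries. In replicate 3, Cd8a exceeded Cd4 in each group, with 104 against 96.9 FPKM in Th17-1, 117 against 57.1 in Th1-1 and 141 against 52.9 in Th17-17. Cd4 exceeded Cd8a in the remaining libraries. With Cd8a and Cd8b1 as a covariate, the member calls given below all held. A fit of replicates 1 and 2 only leaves out the libraries high in Cd8a and has fewer libraries. It lost the calls of Pmaip1 in Th17-1 against Th17-17 (limma adjusted p = 0.0504) and of Bcl2l11 in Th1-1 against Th17-17 (0.0639). Summed NK cell markers were 4.70 to 9.90 FPKM in Th17-1, 7.91 to 19.0 in Th1-1 and 22.5 to 51.4 in Th17-17. Of these, Eomes had 4.38 to 9.40 FPKM in Th17-1, 7.57 to 17.7 in Th1-1 and 18.8 to 44.2 in Th17-17. Klrb1c had 0.0824 to 0.496, 0.337 to 1.35 and 3.06 to 7.19 FPKM in the same order, and it was lower in Th17-1 (-2.09, limma adjusted p = 0.00239) and in Th1-1 (-1.47, 0.00502) than in Th17-17, while Ncr1 and Klra8 stayed at or below 0.0801 FPKM. Eomes was also called lower in Th17-1 than in Th17-17 (-1.88, limma adjusted p = 0.0116), and so it was in Th1-1. The part of these NK cell markers in the results was not tested. Summed B cell markers reached at most 4.01 FPKM, macrophage and dendritic cell markers 14.8, neutrophil and mast cell markers 0.238 and erythroid markers 0.615, and Flt3, S100a8, S100a9, Mcpt4 and Hbb-bs were at 0 in all 9 libraries. The B cell marker Cd79b was called lower in Th17-1 than in Th17-17 (-0.95, limma adjusted p = 0.0144), and so it was in Th1-1. Of 2 tested macrophage and dendritic cell markers, 1 was called lower in Th17-1 than in Th1-1 and 1 higher in Th1-1 than in Th17-17. In Th17-1 against Th17-17, 0 were called. Cd68 averaged 4.75 FPKM in Th17-1, 7.73 in Th1-1 and 2.04 in Th17-17, and Itgax 0.295, 1.86 and 1.35 in the same order. Separate cultures or mice are not stated in the labels for the replicates, so p-values measure the spread between these libraries, which may be technical. The depth of the libraries is unknown.

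Th1-1 against Th17-17 gave the most member calls, as it gave the most calls among all genes tested. In that comparison 5 of 10 members were higher in Th1-1 (Bcl2l1, Bcl2l11, Pmaip1, Bax and Bak1) and 0 were lower, at an adjusted p below 0.05 in limma with Benjamini-Hochberg adjustment over all genes tested. Of all genes tested 42.9% were called there, 14.0% as higher and 28.9% as lower. Th17-1 cells had 2 members higher than Th17-17 cells (Bcl2l1 and Pmaip1) and 0 lower, where 15.9% of all genes were called, 6.43% as higher and 9.49% as lower. Against Th1-1 cells, Th17-1 cells had 1 member lower (Pmaip1) and 0 higher, where 10.5% of all genes were called, 5.67% as higher and 4.81% as lower. Pmaip1 was the member called in all 3 comparisons, with Th17-1 between the other groups. These comparisons share libraries, so their calls are not independent. Groups did not overlap for 4 members in Th17-1 against Th17-17 (3 higher, and Bid lower), where this held for 43.2% of all genes, 13.2% higher and 30.0% lower. They did not overlap for 3 members in Th17-1 against Th1-1, all lower, where this held for 29.2% of all genes, 16.3% higher and 12.9% lower. They did not overlap for 4 members in Th1-1 against Th17-17, all higher, where this held for 52.9% of all genes, 16.4% higher and 36.4% lower.

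The median difference of the 10 members was 0.56 log2 units in Th1-1 against Th17-17, where that of all genes was -0.17. It was 0.17 in Th17-1 against Th17-17, where that of all genes was -0.12, and -0.26 in Th17-1 against Th1-1, where that of all genes was 0.05. Median-ratio scaling moved the medians of all genes to -0.01 in Th1-1 against Th17-17 and -0.01 in Th17-1 against Th17-17. The genes called were then 2047 higher and 1752 lower in Th1-1 against Th17-17, where the deposited scale gave 1478 and 3048 and quantile normalization 1790 and 2138. In Th17-1 against Th17-17 they were 852 higher and 498 lower, where the deposited scale gave 678 and 1000 and quantile normalization 758 and 614. All member calls kept their direction under these scalings.

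The counts in the comparisons of Th17-1 rest on single libraries. In Th17-1 against Th17-17, the 2 calls became 1 without Th17-1 replicate 1 or 2 and 0 without Th17-17 replicate 1 or 2. In Th17-1 against Th1-1, the 1 call was lost without Th17-1 replicate 1 or 2, Th1-1 replicate 1 or 3, or Th17-17 replicate 1 or 2, while 2 members were called without Th17-1 replicate 3 or Th17-17 replicate 3 and 4 without Th1-1 replicate 2. In Th1-1 against Th17-17, 3 to 6 members were called when 1 library was left out, the lowest without Th1-1 replicate 3. With only the 2 closest libraries of each group, a setting chosen after seeing the data that narrows the spread by construction, 4 members were higher and 1 lower in Th17-1 than in Th17-17, where 34.7% of all genes were called, 13.7% as higher and 21.0% as lower. That setting called 1 member higher and 5 lower in Th17-1 against Th1-1, beside 46.0% of all genes (28.8% higher, 17.2% lower). In Th1-1 against Th17-17 it called 6 higher and 1 lower, beside 61.5% of all genes (19.5% higher, 42.0% lower).

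**Figure D1:**
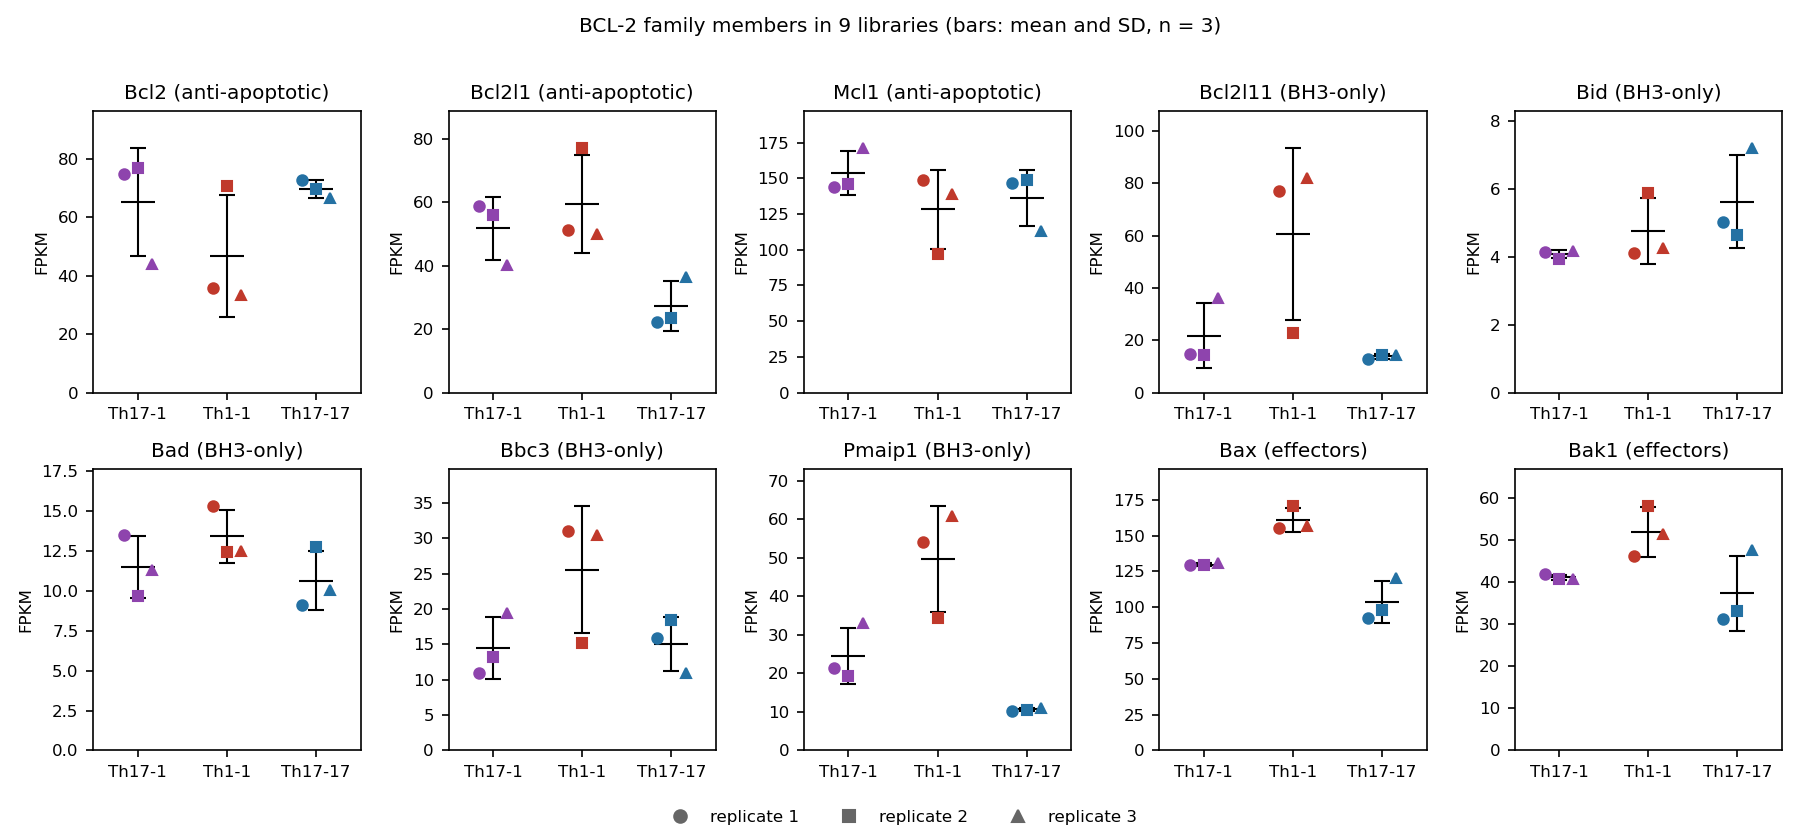
FPKM of each of the 10 BCL-2 family genes in each library (points), with the mean and SD of each group of 3; groups run Th17-1, Th1-1, Th17-17 from left to right. Bcl2l11 reached 77.1 and 82.0 FPKM in 2 of the 3 Th1-1 libraries, and Pmaip1 stayed between 10.3 and 11.1 FPKM in the Th17-17 libraries.

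Among the survival genes, Bcl2l1 separated the groups and Bcl2 and Mcl1 did not. Bcl2l1 (chromosome 2, 152780668 to 152831728 in GRCm38, minus strand) encodes BCL-XL, which protects activated lymphocytes. It had 58.9, 55.9 and 40.2 FPKM in the 3 Th17-1 libraries and 51.3, 77.1 and 49.9 FPKM in the 3 Th1-1 libraries, against 22.1, 23.6 and 36.3 FPKM in the 3 Th17-17 libraries. Every Th17-1 and Th1-1 library lay above every Th17-17 library, and Th17-17 replicate 3 was the nearest to them. Means were 51.7 ± 10.0 FPKM in Th17-1, 59.4 ± 15.3 in Th1-1 and 27.3 ± 7.80 in Th17-17 (SD, n = 3 each). On the scale of log2(FPKM + 1), used for all differences here, Th17-1 exceeded Th17-17 by 0.91 ± 0.23 (SE), which is 1.88-fold, with a limma adjusted p of 0.0314. That call was lost without Th17-1 replicate 1 (adjusted p = 0.108) or 2 (0.0925), without Th17-17 replicate 1 (0.124) or 2 (0.122), and when no filter on low values was set (0.0572). A replicate block in the limma fit lost that call as well (adjusted p = 0.0506). Th1-1 exceeded Th17-17 by 1.10, or 2.14-fold (adjusted p = 0.00601), and this held in each fit that left out 1 library (largest adjusted p 0.0292). Th17-1 and Th1-1 overlapped, and their difference of -0.19 had a 95% interval of -0.72 to 0.34.

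Bcl2 (chromosome 1, 106538178 to 106714274, minus strand), the founding survival gene of the family, varied as much within Th17-1 and Th1-1 as between groups. It had 74.9, 77.0 and 43.9 FPKM in Th17-1 and 35.9, 70.7 and 33.4 FPKM in the Th1-1 libraries, against 72.9, 69.7 and 66.6 FPKM in Th17-17. The libraries that stood apart carried the odd values: Th17-1 replicate 3 was low for its group, and Th1-1 replicate 2 was high and lay within the range of Th17-17. Means were 65.2 ± 18.5 FPKM in Th17-1, 46.7 ± 20.8 in Th1-1 and 69.7 ± 3.18 in Th17-17 (SD, n = 3 each). None of the 3 differences passed the limma test. Th1-1 minus Th17-17 was -0.65 (95% interval -1.31 to 0.01, adjusted p = 0.0980), and without Th1-1 replicate 2 it was -0.99 (adjusted p = 0.00553). With Cd8a and Cd8b1 as a covariate it was -0.85 (adjusted p = 0.0317). Th17-1 minus Th1-1 was 0.51 (adjusted p = 0.302), and 0.85 without Th1-1 replicate 2 (adjusted p = 0.0292). Leaving out Th1-1 replicate 2 removes an odd Bcl2 value and narrows the spread by construction, so it is no test of Bcl2. Over all alternatives the limma adjusted p reached 0.29 in Th1-1 against Th17-17 and 0.65 in Th17-1 against Th1-1. Th17-1 minus Th17-17 was -0.14 (95% interval -0.79 to 0.52). With the 2 closest libraries of each group only, Th17-1 minus Th1-1 was 1.11 and Th1-1 minus Th17-17 was -1.02. That setting was chosen after seeing the data and leaves out the odd Bcl2 values named above, so it is no test of Bcl2. It called 46.0% of all genes in the first of these comparisons and 61.5% in the second.

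Mcl1 (chromosome 3, 95658788 to 95663176, plus strand), whose short-lived product is needed for lymphocyte survival, had the highest level of the survival genes in every library. It had 144, 146 and 171 FPKM in Th17-1 and 149, 96.8 and 139 FPKM in the Th1-1 libraries, against 147, 149 and 113 FPKM in Th17-17. All 3 groups overlapped, and the lowest library, Th1-1 replicate 2, was the one with the highest Bcl2l1. The 3 differences lay between -0.10 and 0.28 log2 units and had limma adjusted p-values from 0.343 to 0.666, and the widest 95% bounds were -0.49 in Th1-1 against Th17-17 and 0.67 in Th17-1 against Th1-1.

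Of the BH3-only genes, Bcl2l11 and Pmaip1 were called and Bbc3, Bid and Bad were not. Bcl2l11 (chromosome 2, 128126038 to 128162547, plus strand) encodes BIM, which binds all survival members. Its RNA is known to be induced by FOXO factors when growth factor signals fall, so the 250 bases before its start are shown, from RefSeq (GRCm38.p6, chr2:128125788-128126037, plus strand), with a FOXO motif in capitals.
Bcl2l11: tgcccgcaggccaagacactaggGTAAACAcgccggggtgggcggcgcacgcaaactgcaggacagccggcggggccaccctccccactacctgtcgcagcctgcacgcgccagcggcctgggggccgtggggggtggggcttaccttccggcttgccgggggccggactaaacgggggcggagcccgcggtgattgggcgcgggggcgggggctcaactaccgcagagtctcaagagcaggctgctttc
The motif GTAAACA lay at -227 to -221 from the start site, and 3.06% of 27025 promoters of the same length held it on either strand. A match is a description of letters and not of binding.

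Bcl2l11 was high in 2 of the 3 Th1-1 libraries. It had 14.9, 14.3 and 36.1 FPKM in Th17-1 and 77.1, 22.7 and 82.0 FPKM in the Th1-1 libraries, against 12.8, 14.3 and 14.3 FPKM in Th17-17. Th1-1 replicates 1 and 3 exceeded every other library, Th1-1 replicate 2 lay below Th17-1 replicate 3, and the Th17-17 libraries were close together. The 2 libraries that stood apart in Th17-1 and Th1-1 were thus also the odd values of Bcl2l11, and what set them apart was not tested. Means were 21.8 ± 12.4 FPKM in Th17-1, 60.6 ± 32.9 in Th1-1 and 13.8 ± 0.858 in Th17-17 (SD, n = 3 each). Th1-1 exceeded Th17-17 by 1.85 ± 0.48 (SE), or 3.62-fold (limma adjusted p = 0.0142), and the call was lost without Th1-1 replicate 1 (0.051) or 3 (0.0552) and with replicates 1 and 2 only (0.0639). Th17-1 minus Th1-1 was -1.36 (95% interval -2.46 to -0.27) and did not pass (limma adjusted p = 0.109). It was -1.78 without Th17-1 replicate 3 (0.0454) and -1.95 without Th1-1 replicate 2 (0.0072). These 2 libraries hold the odd values named above, so leaving either out narrows the spread by construction and is no test. Over all alternatives the adjusted p of this difference reached 0.324. Th17-1 minus Th17-17 was 0.49 with a wide 95% interval of -0.60 to 1.59. In bulk RNA, fewer cells that express a gene and less RNA of it per cell cannot be told apart.

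Pmaip1, which encodes NOXA, a BH3-only protein best known as a partner of MCL-1 and a target of p53, gave the clearest order of the groups. It had 21.4, 19.4 and 33.0 FPKM in Th17-1 and 54.2, 34.3 and 60.7 FPKM in the Th1-1 libraries, against 10.3, 10.5 and 11.1 FPKM in Th17-17. None of the groups overlapped: Th1-1 was the highest, Th17-17 the lowest and Th17-1 between them, although Th17-1 replicate 3 and Th1-1 replicate 2 lay close to each other. Means were 24.6 ± 7.31 FPKM in Th17-1, 49.7 ± 13.8 in Th1-1 and 10.6 ± 0.429 in Th17-17 (SD, n = 3 each). Th1-1 exceeded Th17-17 by 2.09 ± 0.23 (SE), or 4.24-fold (limma adjusted p = 0.000314), with a largest adjusted p of 0.00273 when 1 library was left out. Th17-1 exceeded Th17-17 by 1.10, or 2.15-fold (adjusted p = 0.0137), a call lost without Th17-17 replicate 1 (0.0618) or 2 (0.058) and with replicates 1 and 2 only (0.0504). Th17-1 was lower than Th1-1 by a difference of -0.98 ± 0.23 (SE), with an adjusted p of 0.0308. That call was lost without Th17-1 replicate 1 (0.115) or 2 (0.127), Th1-1 replicate 1 (0.0926) or 3 (0.114), or Th17-17 replicate 1 (0.055) or 2 (0.0525). It was also lost in a fit of those 2 groups only (0.0825) and with no filter on low values (0.0565).

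Bbc3 (chromosome 7, 16308393 to 16318205, plus strand) encodes PUMA, another p53 target. It had 11.0, 13.2 and 19.5 FPKM in Th17-1 and 31.1, 15.2 and 30.5 FPKM in the Th1-1 libraries, against 15.9, 18.4 and 10.9 FPKM in Th17-17. Th1-1 replicates 1 and 3 were above all other libraries, as for Bcl2l11, and Th1-1 replicate 2 fell within the other groups. Th1-1 minus Th17-17 was 0.69 (limma adjusted p = 0.0965) and 1.01 without Th1-1 replicate 2 (0.00945). Th17-1 minus Th1-1 was -0.74 (adjusted p = 0.160) and -1.07 without that library (0.0226), while Th17-1 minus Th17-17 was -0.06 (95% interval -0.75 to 0.64). Leaving out Th1-1 replicate 2, the odd value of its group, narrows the spread by construction and is no test. Over all alternatives the limma adjusted p reached 0.455 in Th1-1 against Th17-17 and 0.406 in Th17-1 against Th1-1.

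Bid was the lowest member in every library, and neither Bid nor Bad passed the limma test in a comparison. Bid (chromosome 6, 120891930 to 120916853, minus strand), which death receptor signalling cleaves into an active form, had 4.15, 3.94 and 4.16 FPKM in Th17-1 and 4.11, 5.88 and 4.26 FPKM in the Th1-1 libraries, against 5.02, 4.64 and 7.20 FPKM in Th17-17. The Th17-1 libraries lay below all Th17-17 libraries, yet the difference of -0.36 did not pass (adjusted p = 0.159). Bad (chromosome 19, 6941861 to 6951899, plus strand), which growth factor kinases inactivate by phosphorylation, had 13.5, 9.65 and 11.3 FPKM in Th17-1 and 15.3, 12.4 and 12.5 FPKM in the Th1-1 libraries, against 9.13, 12.7 and 10.1 FPKM in Th17-17. Its groups overlapped throughout, and Th1-1 minus Th17-17 was 0.31 (adjusted p = 0.130), 0.47 under median-ratio scaling (0.0427) and 0.48 under quantile normalization (0.0394). Bid overlaps Bcl2l13 and Bad overlaps Gpr137, each on the opposite strand, and whether reads were counted by strand is not given in the sources used here. The same limit holds for Bak1, which overlaps Ggnbp1 (2.53 to 6.19 FPKM), and for Bcl2, which overlaps the antisense gene D630008O14Rik. Bax overlaps Gm45808 on the same strand, which had at most 0.0684 FPKM.

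Both effector genes were called in Th1-1 against Th17-17. Bax (chromosome 7, 45461697 to 45466898, minus strand) encodes a pore-forming effector that rests in the cytosol and is a known p53 target in human cells. The 250 bases before its start are shown, from RefSeq (GRCm38.p6, chr7:45466899-45467148, minus strand), with a p53 half-site and an E-box in capitals.
Bax: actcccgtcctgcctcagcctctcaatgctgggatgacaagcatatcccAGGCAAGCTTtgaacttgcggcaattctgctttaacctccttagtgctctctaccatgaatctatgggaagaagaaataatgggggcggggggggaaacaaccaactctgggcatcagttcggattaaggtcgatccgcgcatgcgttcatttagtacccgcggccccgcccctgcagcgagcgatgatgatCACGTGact
The half-site lay at -201 to -192 and the E-box CACGTG at -9 to -4 from the start site, and 7.16% and 6.04% of the 27025 promoters held the same motifs on either strand. The search covered 8 motifs on both strands: FOXO, E-box, p53 half-site, NF-kappaB site, STAT (TTCNNNGAA, 7.14% of promoters), AP-1 (TGANTCA, 6.85%), CRE (TGACGTCA, 1.60%) and T-box (AGGTGTGA, 1.14%). Of the 9 members with a promoter entry, Bbc3 held an NF-kappaB site (7.03% of promoters), while the windows of Bcl2, Bcl2l1, Mcl1, Bid, Bad and Bak1 held none of the 8. The start sites of RefSeq can differ from the gene positions printed here. The windows of Bbc3 and Bak1 lay within those positions, and that of Bid lay partly within them.

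Bax varied little within groups. It had 129, 129 and 131 FPKM in Th17-1 and 155, 171 and 157 FPKM in the Th1-1 libraries, against 92.1, 98.0 and 120.2 FPKM in Th17-17. The 3 groups did not overlap, with Th1-1 highest and Th17-17 lowest, and the nearest libraries were those of Th17-1 and Th17-17 replicate 3. Means were 129.8 ± 1.04 FPKM in Th17-1, 160.8 ± 8.63 in Th1-1 and 103 ± 14.8 in Th17-17 (SD, n = 3 each). Th1-1 exceeded Th17-17 by 0.64 ± 0.10 (SE), or 1.56-fold (limma adjusted p = 0.00166), with a largest adjusted p of 0.0108 when 1 library was left out. Th17-1 minus Th17-17 was 0.33 and did not pass (adjusted p = 0.0581), but it passed without Th17-17 replicate 3 (0.00968), without Th1-1 replicate 2 (0.0442), and under median-ratio scaling (0.0198). Th17-1 minus Th1-1 was -0.31 (adjusted p = 0.0939), and it passed without Th17-17 replicate 3 (0.0333). Th17-17 replicate 3 lay apart in its group for Bax, so leaving it out narrows the spread by construction. Over all alternatives the limma adjusted p reached 0.201 in Th17-1 against Th17-17 and 0.247 in Th17-1 against Th1-1.

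Bak1 (chromosome 17, 27019810 to 27029009, minus strand) encodes BAK, the effector that resides in the mitochondrial membrane. It had 41.9, 40.8 and 40.8 FPKM in Th17-1 and 46.3, 58.2 and 51.6 FPKM in the Th1-1 libraries, against 31.4, 33.2 and 47.7 FPKM in Th17-17. Th1-1 and Th17-17 overlapped through Th17-17 replicate 3, which exceeded Th1-1 replicate 1, and all Th17-1 libraries lay below all Th1-1 libraries. Th1-1 exceeded Th17-17 by 0.48 ± 0.15 (SE), or 1.40-fold (limma adjusted p = 0.0312). The call was lost without Th1-1 replicate 2 (0.0658) or 3 (0.0773), without Th17-17 replicate 1 (0.116) or 2 (0.107), and in a fit of those 2 groups only (0.0637). Th17-1 minus Th1-1 was -0.32 (adjusted p = 0.217) and Th17-1 minus Th17-17 was 0.16 (0.495).

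**Figure D2:**
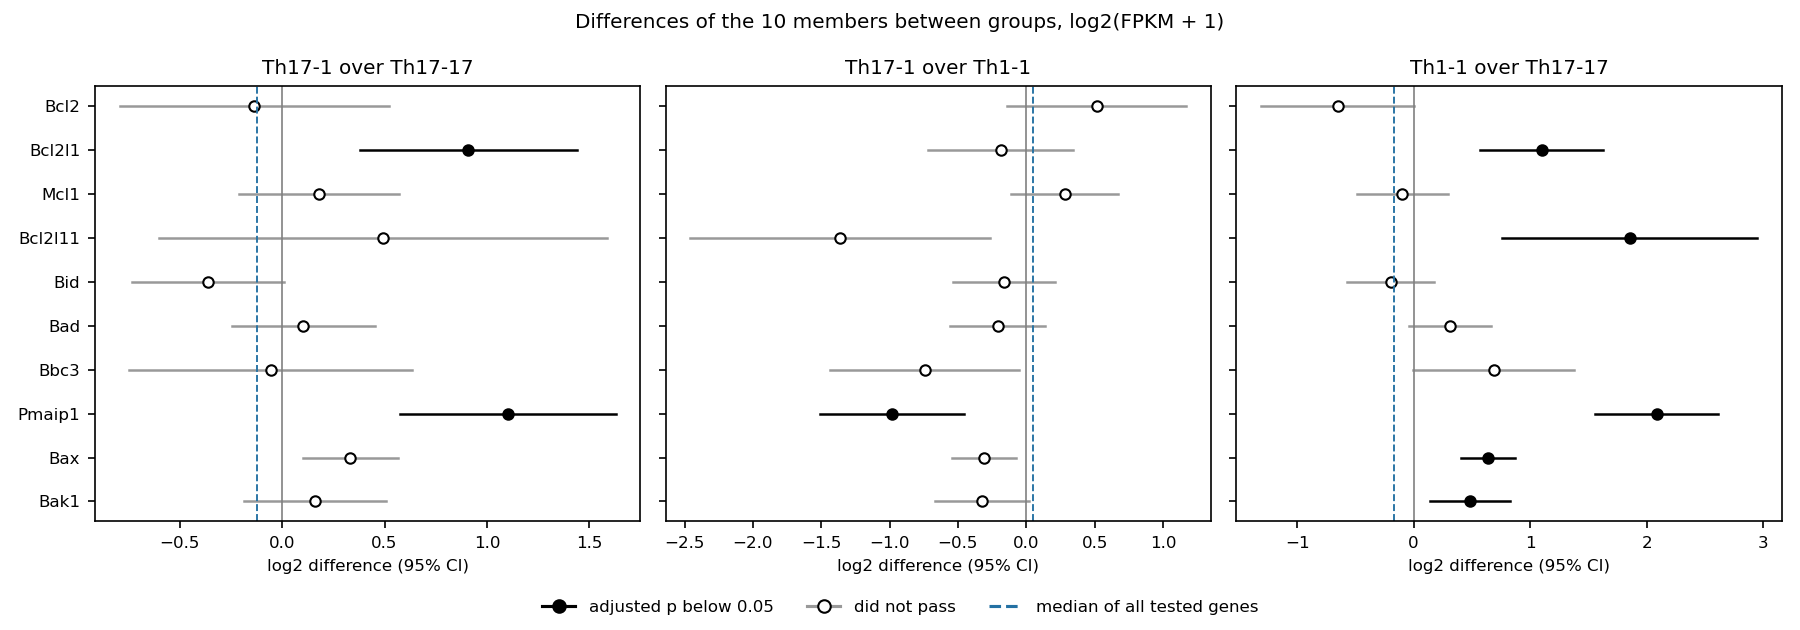
Difference of each of the 10 BCL-2 family genes in log2(FPKM + 1), with its 95% interval from limma, in the 3 comparisons; filled points passed an adjusted p of 0.05 and the dashed line marks the median of all genes tested. In Th1-1 against Th17-17, 5 genes passed and all 5 were higher in Th1-1.

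FPKM is scaled by length, so 2 genes may be set side by side within a library, and their ratio does not depend on how the library was scaled. In FPKM, Bcl2 and Bcl2l1 exchanged rank between the groups. Bcl2 over Bcl2l1 was 1.27, 1.38 and 1.09 in the Th17-1 libraries and 0.701, 0.917 and 0.670 in the Th1-1 libraries, against 3.30, 2.96 and 1.83 in the Th17-17 libraries. The FPKM of Bcl2 thus exceeded that of Bcl2l1 in every Th17-17 and Th17-1 library and was below it in every Th1-1 library. Th17-1 lay between the other groups with no overlap. The log2 ratio differed by -1.08 in Th17-1 against Th17-17, by 0.72 in Th17-1 against Th1-1 and by -1.79 in Th1-1 against Th17-17. Each had an exact two-sided permutation p of 0.10, the smallest that 3 libraries against 3 can give, so no ratio could pass 0.05.

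Ratios of death to survival genes were highest in Th1-1 replicates 1 and 3. Bcl2l11 over Bcl2 was 0.199, 0.186 and 0.822 in Th17-1 and 2.15, 0.321 and 2.46 in Th1-1, against 0.176, 0.205 and 0.215 in Th17-17. The FPKM of Bcl2l11 exceeded that of Bcl2 in those 2 Th1-1 libraries only, of the 9 measured. The log2 ratio was higher by 2.59 in Th1-1 than in Th17-17 without overlap (exact two-sided permutation p = 0.10), whereas Th17-1 overlapped both other groups. Bcl2l11 over Mcl1 was 0.103, 0.0979 and 0.211 in Th17-1 and 0.518, 0.234 and 0.589 in Th1-1, against 0.0875, 0.0962 and 0.126 in Th17-17. Here Th1-1 lay above both other groups without overlap, with a log2 difference of -1.69 in Th17-1 against Th1-1 and 2.02 in Th1-1 against Th17-17 (exact two-sided permutation p = 0.10 for both). Bcl2l11 over Bcl2l1 ranged from 0.253 to 0.897 in Th17-1, from 0.294 to 1.64 in Th1-1 and from 0.395 to 0.606 in Th17-17, and all groups overlapped.

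Bax over Bcl2 was 1.73, 1.68 and 2.99 in Th17-1 and 4.31, 2.42 and 4.69 in Th1-1, against 1.26, 1.41 and 1.81 in Th17-17. Th1-1 exceeded Th17-17 in every library (log2 difference 1.31, exact two-sided permutation p = 0.10), and Th17-1 overlapped both. Bcl2l1 over Mcl1 was 0.408, 0.383 and 0.235 in Th17-1 and 0.345, 0.796 and 0.358 in Th1-1, against 0.151, 0.159 and 0.320 in Th17-17, and Th1-1 again exceeded Th17-17 without overlap (log2 difference 1.23, p = 0.10 in the same exact test). Bcl2 over Mcl1 ranged from 0.256 to 0.527 in Th17-1, from 0.240 to 0.730 in Th1-1 and from 0.469 to 0.587 in Th17-17 and overlapped in all comparisons. All 7 ratios were computed in 3 comparisons, which gives 21 tests. None of these p-values would pass an adjustment.

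**Figure D3:**
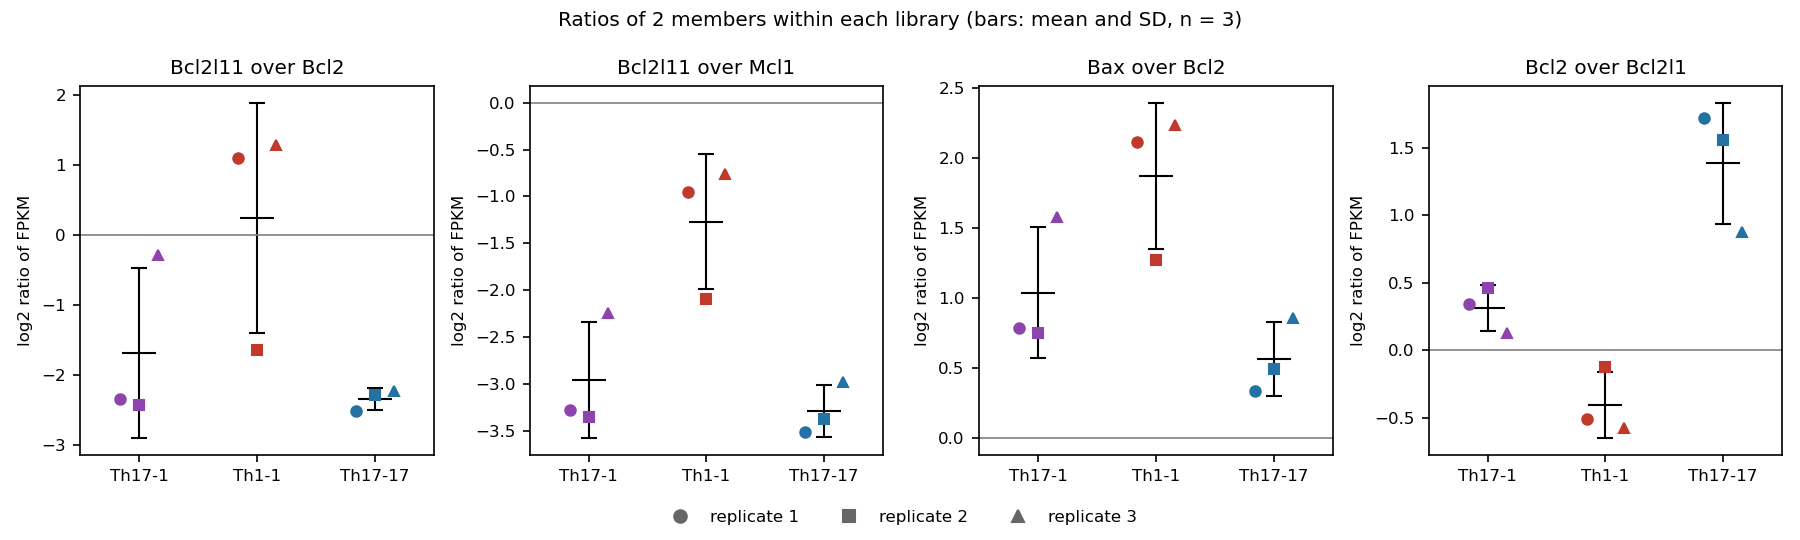
Ratio of 2 BCL-2 family genes within each library on a log2 axis, for 4 of the 7 pairs; points are libraries and bars are the mean and SD of each group of 3, with Th17-1, Th1-1 and Th17-17 from left to right. Bcl2 over Bcl2l1 separates the 3 groups, from 0.670 in a Th1-1 library to 3.30 in a Th17-17 library.

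Other genes of the BCL-2 family were described from a list of 15. Of these, 9 passed the filter, and Bcl2l10 and Hrk were at 0 FPKM in all libraries. In Th1-1 against Th17-17, 3 were higher and 2 lower, where 14.0% of all genes were higher and 28.9% lower. In the comparisons of Th17-1, 1 was lower against each of the other groups and 0 were higher. There 9.49% of all genes were lower against Th17-17 and 4.81% against Th1-1. Bcl2l2, which encodes the survival protein BCL-W, had 3.87, 3.81 and 3.89 FPKM in Th17-1 and 6.79, 6.02 and 7.19 FPKM in the Th1-1 libraries, against 3.39, 3.04 and 3.78 FPKM in Th17-17. All Th1-1 libraries exceeded all others. Th17-1 minus Th1-1 was -0.66 (limma adjusted p = 0.00627) and Th1-1 minus Th17-17 was 0.80 (0.000596), and both held when any 1 library was left out (largest adjusted p 0.0366 and 0.00453).

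Bcl2a1b, a survival gene of the A1 group, had 16.7, 14.5 and 35.9 FPKM in Th17-1 and 53.2, 29.9 and 65.4 FPKM in the Th1-1 libraries, against 9.97, 8.35 and 11.6 FPKM in Th17-17. Th1-1 replicates 1 and 3 were the highest, as for Bcl2l11 and Pmaip1. Th1-1 exceeded Th17-17 by 2.14, or 4.41-fold (limma adjusted p = 0.00189), and its near-identical paralog Bcl2a1d by 1.79, or 3.47-fold (0.00470). Reads of the A1 genes may be split between copies, so the level of each is uncertain. Bcl2l12 (-0.47, adjusted p = 0.0157) and Bcl2l13 (-0.25, adjusted p = 0.0360) were lower in Th1-1 than in Th17-17. The Bcl2l12 call was lost without Th1-1 replicate 3 or Th17-17 replicate 1 (largest adjusted p 0.0592), under median-ratio scaling (0.0575) and under quantile normalization (0.0555), and Bcl2l12 shares sequence with the overlapping gene Irf3. The Bcl2l13 call was lost without any 1 of 7 libraries, all except Th17-1 replicate 3 and Th1-1 replicate 2 (largest adjusted p 0.126). Bcl2l13 was also lower in Th17-1 than in Th17-17 (-0.30, adjusted p = 0.0402), a call lost without any 1 of 8 libraries, all except Th1-1 replicate 2 (largest adjusted p 0.154). Under median-ratio scaling neither Bcl2l13 difference passed (0.389 in Th1-1 against Th17-17 and 0.175 in Th17-1 against Th17-17), nor did either under quantile normalization (0.514 and 0.159).

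The remaining listed family genes did not pass or were too low to test. Bnip3, a mitophagy gene induced by low oxygen, had 68.4 FPKM in Th1-1 replicate 2, against 16.2 and 21.8 FPKM in the other Th1-1 libraries. Bnip3l, Bik and Bcl2a1a gave no call. Bmf, a BH3-only gene, stayed between 0.126 and 1.35 FPKM, and Bok, Bcl2l14 and Bcl2l15 below 1 FPKM in every library.

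Death pathway genes around the family were read in further lists. For comparison, all genes tested gave 6.43% higher and 9.49% lower in Th17-1 against Th17-17 and 5.67% and 4.81% in Th17-1 against Th1-1. In Th1-1 against Th17-17 these shares were 14.0% and 28.9%. Of 13 tested p53 pathway genes (14 listed, none a member), 6 were higher and 0 lower in Th17-1 than in Th17-17, 0 were higher and 6 lower in Th17-1 than in Th1-1, while Th1-1 against Th17-17 gave 7 higher and 1 lower. Their median differences were 0.12, -0.15 and 0.71, where those of all genes were -0.12, 0.05 and -0.17. The count in Th17-1 against Th1-1 was 3 without Th17-1 replicate 1. Cdkn1a, the p53-induced inhibitor of the cell cycle, averaged 131 ± 11.6 FPKM in Th17-1, 270.2 ± 65.1 in Th1-1 and 39.7 ± 11.3 in Th17-17 (SD, n = 3 each). Its groups kept the order of Pmaip1 and Bax, with Th1-1 highest. The differences of Cdkn1a were 1.73 in Th17-1 against Th17-17 (limma adjusted p = 0.00104), -1.01 in Th17-1 against Th1-1 (0.0183) and 2.74 in Th1-1 against Th17-17 (4.46e-05). The second of these was lost without Th17-1 replicate 1 or 2 or Th1-1 replicate 3 (largest adjusted p 0.0794). Zmat3 was higher by 0.87 in Th17-1 than in Th17-17 (0.00101), and Phlda3 was lower by a difference of -0.80 in Th17-1 than in Th1-1 (0.00176) and higher by 1.58 in Th1-1 than in Th17-17 (1.14e-05). These 3 calls held when any 1 library was left out. Rrm2b was lower by -0.33 in Th1-1 than in Th17-17 (0.0479), a call lost without any 1 of 7 libraries, all except Th1-1 replicate 2 and Th17-17 replicate 3 (largest adjusted p 0.167), and under median-ratio scaling (-0.19, 0.236) and quantile normalization (-0.15, 0.342). Trp53 itself ranged from 73.7 to 91.3 FPKM over the 9 libraries and gave no call.

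**Figure D4:**
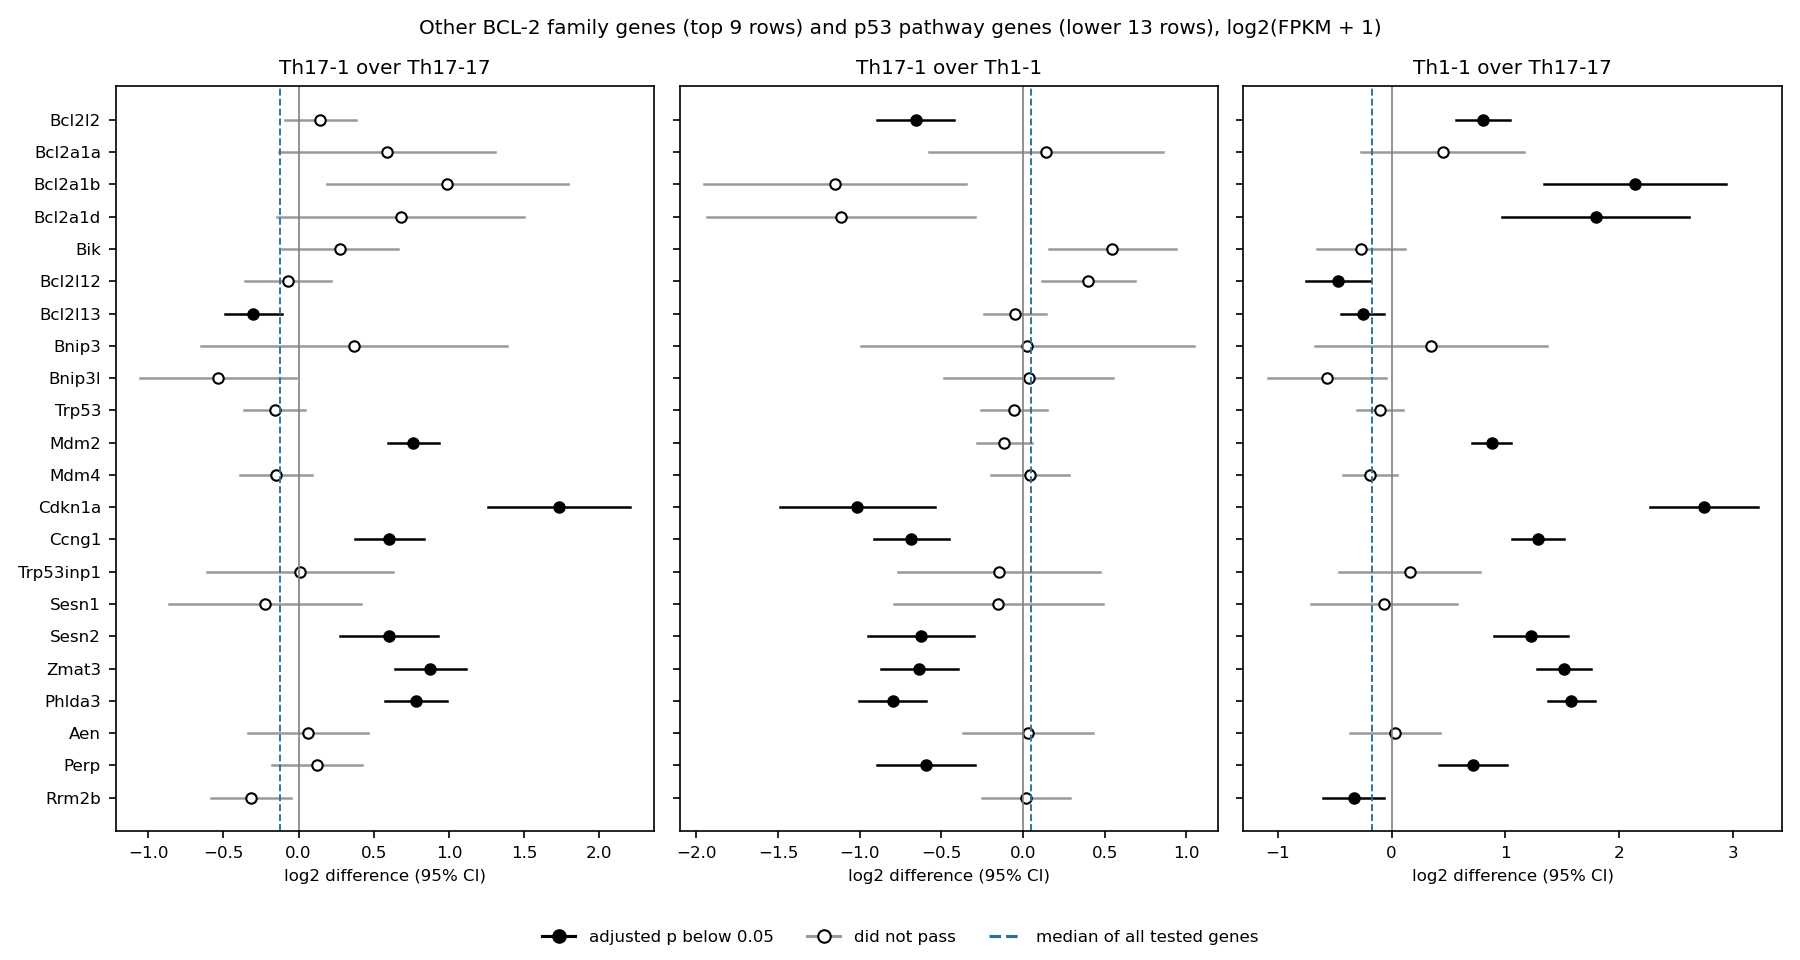
Differences in log2(FPKM + 1) with 95% limma intervals for other tested BCL-2 family genes and p53 pathway genes in the 3 comparisons; filled points passed an adjusted p of 0.05. Cdkn1a differed by 1.73 in Th17-1 against Th17-17, by -1.01 in Th17-1 against Th1-1 and by 2.74 in Th1-1 against Th17-17.

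Of 11 death receptor genes, 3 were higher and 0 lower in Th17-1 than in Th17-17, 1 was higher and 3 lower in Th17-1 than in Th1-1, while Th1-1 against Th17-17 gave 6 higher and 1 lower. The shares of all genes called were 15.9%, 10.5% and 42.9% in the same order. The 4 calls in Th17-1 against Th1-1 became 1 without Th17-1 replicate 1 or Th1-1 replicate 3, and 0 without Th17-1 replicate 2. Fas, the receptor that can cleave BID through caspase-8, averaged 30.6 ± 3.44 FPKM in Th17-1, 22.6 ± 6.29 in Th1-1 and 9.81 ± 1.07 in Th17-17 (SD, n = 3 each), and Th17-1 exceeded Th17-17 by 1.55 (limma adjusted p = 0.00132). Tnfrsf10b, a receptor for the ligand TRAIL, was higher by 1.03 in Th17-1 (0.000347) and by 1.40 in Th1-1 (3.48e-05) than in Th17-17. These 3 calls held when any 1 library was left out. Fasl, the ligand of Fas, was lower in Th17-1 than in Th1-1 (-1.78, adjusted p = 0.0210, lost without Th17-1 replicate 1 or 2 or Th1-1 replicate 3, at most 0.0921) and higher by 1.56 in Th1-1 than in Th17-17 (0.0110, at most 0.0468 without 1 library). Tnfsf10, which encodes TRAIL, was lower in Th17-1 than in Th1-1 (-1.24, adjusted p = 0.00931), a call lost without Th17-1 replicate 2 (0.0501). Fadd, the adaptor of Fas, was higher by 0.52 in Th17-1 than in Th1-1 (0.0393) and lower by -0.51 in Th1-1 than in Th17-17 (0.0142). The first was lost without any 1 of 7 libraries, all except Th17-1 replicate 3 and Th1-1 replicate 2 (at most 0.151), and the second without Th1-1 replicate 3 or Th17-17 replicate 2 (at most 0.0567). Under quantile normalization both Fadd calls were lost (0.0552 and 0.0786).

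Downstream of the effectors, 16 genes of the apoptosome, caspases and released mitochondrial proteins were tested. In Th17-1 against Th17-17, 3 were higher and 1 lower, in Th17-1 against Th1-1 1 was higher and 0 lower, and in Th1-1 against Th17-17 3 were higher and 5 lower. Among all genes tested, 15.9%, 10.5% and 42.9% were called in the same order. The 4 calls in Th17-1 against Th17-17 became 2 without Th17-1 replicate 1, Th17-1 replicate 3 or Th17-17 replicate 1, and 1 without Th17-17 replicate 2. The 1 call in Th17-1 against Th1-1 became 2 without Th17-1 replicate 3, Th1-1 replicate 2 or Th17-17 replicate 3. The 8 calls in Th1-1 against Th17-17 became 4 without Th1-1 replicate 3 and 5 without Th17-17 replicate 1, 2 or 3. Casp6, an executioner caspase, averaged 21.5 ± 2.85 FPKM in Th17-1, 10.1 ± 0.407 in Th1-1 and 7.92 ± 0.454 in Th17-17 (SD, n = 3 each). It was higher in Th17-1 than in Th17-17 by 1.33 (limma adjusted p = 0.000156) and than in Th1-1 by 1.02 (0.00119), and both calls held when any 1 library was left out. Apaf1, the scaffold of the apoptosome, exceeded Th17-17 by 0.76 in Th17-1 (0.0116, lost without Th17-17 replicate 2 at 0.0591) and by 0.99 in Th1-1 (0.00145). Htra2, a released mitochondrial protease, was lower in Th1-1 than in Th17-17 (-0.54, adjusted p = 0.0132), a call lost without Th1-1 replicate 3 (0.0507).

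Genes that control the family were read in a list of 16. Of these transcription factors and signals, 4 were higher and 0 lower in Th17-1 than in Th17-17, 1 was higher and 2 lower in Th17-1 than in Th1-1, while Th1-1 against Th17-17 gave 9 higher and 1 lower. Beside these counts, 15.9%, 10.5% and 42.9% of all genes were called. The 3 calls in Th17-1 against Th1-1 became 0 without Th17-1 replicate 1 or 2 or Th1-1 replicate 1 or 3, and 1 without Th17-17 replicate 1. Il2ra, the alpha chain of the IL-2 receptor, was higher than in Th17-17 by 2.17 in Th17-1 (limma adjusted p = 0.000154) and by 2.31 in Th1-1 (4.25e-05). Pim2, a survival kinase that acts on BAD, was higher by 1.68 in Th17-1 (0.000265) and by 1.94 in Th1-1 (5.66e-05). Tsc22d3, a glucocorticoid- and FOXO-induced gene, was lower by -2.05 in Th1-1 than in Th17-17 (0.00194), and these 5 calls held when any 1 library was left out. In Th17-1 against Th1-1, Tsc22d3 was higher by 1.39 (0.0348, at most 0.115 without 1 library) and Il2rb lower (-0.73, 0.0477, at most 0.172). Both calls were lost without Th17-1 replicate 1 or 2 or Th1-1 replicate 1 or 3. The Tsc22d3 call was lost also without Th17-1 replicate 3 or Th17-17 replicate 1, and that of Il2rb without Th1-1 replicate 2 or Th17-17 replicate 1 or 2 and under quantile normalization (0.0584).

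Of 5 tested inhibitors of apoptosis, 2 were higher in Th17-1 than in Th17-17 (Birc3 by 0.80, limma adjusted p = 0.0319, and Birc6 by 0.44, 0.0192), 1 was lower in Th17-1 than in Th1-1 (Naip2, -0.38, 0.0466) and 1 was higher in Th1-1 than in Th17-17 (Birc6 by 0.35, 0.0209). Without 1 library these counts ranged from 0 to 2, 0 to 1 and 0 to 2. With all 9 libraries, 15.9%, 10.5% and 42.9% of all genes were called in these comparisons. The Birc3 call was lost without any 1 library of Th17-1 or Th17-17 (at most 0.101) and the Naip2 call without any 1 library except Th17-1 replicate 3 (at most 0.169) and under equal-sum scaling (0.0606). The first Birc6 call was lost without Th17-1 replicate 2 or 3 or Th17-17 replicate 1 or 2 (at most 0.0651), and the second without Th1-1 replicate 1 or 3 or Th17-17 replicate 1 or 3 (at most 0.072). Of 10 tested regulators of MCL1, BIM and BAD proteins, Fbxw7, a ubiquitin ligase subunit for MCL1, was higher by 0.43 in Th17-1 (0.0375) and by 0.50 in Th1-1 (0.00856) than in Th17-17. The first of these calls was lost without any 1 library except Th1-1 replicates 1 and 2 (at most 0.143). In Th1-1 against Th17-17, Huwe1, another ligase for MCL1, was lower (-0.37, 0.00676), a call lost under median-ratio scaling (0.0604), and Mapk8, a kinase that acts on BIM, was lower (-0.57, 0.0189, lost without Th1-1 replicate 3 or Th17-17 replicate 1 or 2, at most 0.071, under median-ratio scaling at 0.0502 and under quantile normalization at 0.0767). None of these regulators passed in Th17-1 against Th1-1.

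The genes most like Bcl2 over the 9 libraries, by Pearson correlation of log2(FPKM + 1) among 8090 genes, were Setdb1 (0.985), Tob2 (0.983) and Lsm6 (0.982). Those most like Bcl2l11 were Snx13 (0.997), Rbl2 (0.992) and Grina (0.991). The 9 points share 3 groups and the libraries that stood apart, so these values are a description with no test. Rbl2 had 34.1, 32.5 and 48.5 FPKM in Th17-1 and 61.4, 41.9 and 64.9 FPKM in the Th1-1 libraries, against 30.1, 31.3 and 31.8 FPKM in Th17-17. As with Bcl2l11, Th17-1 replicate 3 was high and Th1-1 replicate 2 low for its group.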

How the data were processed

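Messenger RNA of 9 libraries was analysed, 3 in each of 3 groups, which the sample titles name. FPKM values for 22017 gene symbols were deposited by the authors, and per the submitters' processing notes HISAT2, DESeq2 and the mm10 build were used. Not given in the sources used here are their versions and roles, the counting program, annotation, strand use and handling of multiply mapped reads. Values summed to 382581 to 405985 FPKM per library. Low values did not share steps (the commonest ratio between 2 libraries, within 0.01 log2 units, covered at most 1.13% of low genes). Depth is therefore unknown and no counting interval is given. FPKM depends on library composition, so scaling was varied. Of the symbols, 15 had been changed to dates.

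The 10538 genes that reached 1 FPKM in 3 or more libraries were tested as log2(FPKM + 1), which understates differences of low genes. limma 3.58.1 (R 4.3.3) used all 9 libraries in 1 fit with an intensity trend (6 residual degrees of freedom) and two-sided p-values adjusted by the Benjamini-Hochberg method over all genes tested and a threshold of 0.05. The fit was tested on simulated data. Ratios of members within a library were compared by exact two-sided permutation tests. Gene positions and overlaps are those of the GENCODE annotation of GRCm38, and promoters are those of RefSeq GRCm38.p6. Tables and figures were made with Python 3.11.15, pandas 2.3.3, scipy 1.17.1 and matplotlib 3.10.9.

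The members, the gene lists and the tests were chosen with earlier results of these data known. Named genes were all members, every other family gene, the 2 called genes with the largest difference per list, direction and comparison, and the 3 genes most correlated with Bcl2 and with Bcl2l11. Some genes that the rule named are not reported here. The alternatives tried were a replicate block, pseudocounts of 0.1 and 5 FPKM, no filter and a filter of 5 FPKM, median-ratio, equal-sum and quantile scaling, replicates 1 and 2 only, Cd8a and Cd8b1 as a covariate, array weights, robust moderation, 2 groups only, and each library left out. A fit of the 2 closest libraries of each group was added after seeing the data.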

Additional observations from a re-analysis of the deposited data

How the results depend on the processing

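Over 23 alternatives, the 690 values of member differences kept direction and call in 613 cases, lost the call in 25, gained it in 34 and changed sign in 18, all 18 where no test was passed. Bcl2l1, Pmaip1 and Bax in Th1-1 against Th17-17 kept their calls in all 23. Of 63 ratio values, 3 moved by more than 1 SD, all in Th17-1 against Th17-17 with replicates 1 and 2 only (-1.22 for Bcl2l11 over Bcl2l1, 0.12 for Bcl2 over Mcl1, 1.35 for Bcl2l1 over Mcl1, log2). Without 1 library, 681 to 2342 genes and 0 to 3 members were called in Th17-1 against Th17-17, 315 to 1861 and 0 to 4 in Th17-1 against Th1-1, and 3013 to 5400 and 3 to 6 in Th1-1 against Th17-17. Array weights called 4603 genes and 5 members, 5430 and 6, and 7116 and 7 in the same order of comparisons, and the 2 closest libraries of each group 3655 and 5, 4850 and 6, and 6476 and 7. Replicates 1 and 2 only called 1036 genes in Th17-1 against Th17-17 and 596 in Th17-1 against Th1-1. The fit of 2 groups only called 692 genes and 0 members in Th17-1 against Th1-1, and no filter 1 member in Th17-1 against Th17-17 and 0 in Th17-1 against Th1-1. The causes were not tested. Beside the settings named with them, genes outside the members lost calls as follows. With replicates 1 and 2 only these were Bcl2l13, Apaf1, Birc3, Birc6 and Fbxw7 in Th17-1 against Th17-17, Fadd, Naip2 and Tsc22d3 in Th17-1 against Th1-1, and Bcl2l13, Htra2, Fadd, Birc6, Rrm2b and Fbxw7 in Th1-1 against Th17-17. With no filter they were Birc3 and Fbxw7, then Fadd, Naip2, Tsc22d3 and Il2rb, and then Rrm2b, in the same order. In fits of 2 groups only they were Bcl2l13, then Fadd and Naip2, and then Bcl2l13 and Rrm2b. A filter of 5 FPKM lost Naip2 and Il2rb in Th17-1 against Th1-1 and Rrm2b in Th1-1 against Th17-17, and the Cd8 covariate lost both Bcl2l13 calls.

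Whether the replicate numbers pair the samples is not stated in the labels, and the values were mixed. Correlations of deviations were 0.537 and 0.659 for replicates 2 and 3 of Th17-1 and Th1-1, and -0.178 for replicates 1. Same-number values with Th17-17 ran from -0.177 to 0.333, and not every sample was closest to its own number. Summed Cd8a and Cd8b1 rose from replicate 1 to replicate 3 in each group. With a replicate block, 1681, 1255 and 4452 genes and 1, 1 and 5 members were called in the same order, and Bcl2l1 in Th17-1 against Th17-17 had an adjusted p of 0.0506. Both Bcl2l13 calls, Tsc22d3 in Th17-1 against Th1-1 and Rrm2b in Th1-1 against Th17-17 were lost as well.

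These log2 differences changed sign. Under the alternatives none of them passed an adjusted p of 0.05, except Bnip3l in Th17-1 against Th1-1 with the 2 closest libraries (adjusted p = 0.0135). In Th17-1 against Th17-17, Bbc3 was 0.0561 under median-ratio scaling, 0.0336 under quantile normalization and 0.0133 with the Cd8 covariate. Bcl2l12 was 0.0394 under median-ratio scaling, 0.0260 under quantile normalization and 0.0085 with array weights. With replicates 1 and 2 only, which gave the same values as the 2 closest libraries, Bcl2 was 0.0896, Mcl1 -0.0240 and Bcl2l12 0.0464. Bcl2 was 0.0446 with array weights. Without 1 library, Bcl2 ranged from -0.2768 to 0.1222, Bad from -0.0111 to 0.2270, Bbc3 from -0.2718 to 0.1130 and Bcl2l12 from -0.1586 to 0.0611. In Th17-1 against Th1-1, Bnip3 was -0.0020 with a pseudocount of 5 FPKM, -0.0248 under median-ratio scaling, -0.0078 under quantile normalization and -0.1535 with replicates 1 and 2 only. Bnip3l was -0.0168, -0.0036 and -0.0619 in the last 3 settings, -0.2267 with array weights and -0.3048 with the 2 closest libraries. Bcl2l1 was 0.1131 with array weights and 0.1790 with the 2 closest libraries. Without 1 library, Bcl2l1 ranged from -0.2968 to 0.0116, Bnip3 from -0.3776 to 0.6288, Bnip3l from -0.1383 to 0.1367 and Bcl2a1a from -0.0575 to 0.4197. In Th1-1 against Th17-17, Mcl1 was 0.0723 under median-ratio scaling and Bid 0.0253 with replicates 1 and 2 only. Without 1 library, Mcl1 ranged from -0.2250 to 0.0902 and Bnip3 from -0.2582 to 0.7482.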
